A study of Mus musculus with 8 samples.

Results

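The 9 genes described here form the core of the MHC class II antigen presentation pathway: the classical class II chains H2-Aa, H2-Ab1 and H2-Eb1, the invariant chain Cd74, the peptide editor chains H2-DMa and H2-DMb1, the editor's regulator chains H2-Oa and H2-Ob, and the transactivator Ciita. They were chosen by name as genes of this pathway, with earlier results of these data known, and all 9 were among the 13245 genes listed in the expression table. RNA-seq was carried out on CD8 T cells sorted as Ly6C+ and CXCR3+ from mouse lymph nodes, with 4 libraries from CD103Tg mice and 4 from B6 (C57BL/6) mice. Per the labels, CD103Tg mice overexpress CD103, whose gene is Itgae. The sources used here give neither the promoter that drives this transgene nor the age or any treatment of the mice. No label ties the 4 libraries of a group to different animals, and the p-values therefore reflect the variation among these libraries alone. Itgae was at 3469 to 5509 CPM in the CD103Tg libraries, against 37.5 to 173.9 CPM in the B6 libraries. The T cell markers Cd3e (830.4 ± 44.96 CPM in CD103Tg and 900 ± 62.7 CPM in B6, mean ± SD, n = 4 each) and Cd8b1 (1691 ± 134 CPM in CD103Tg and 1934 ± 139 CPM in B6) were high in both groups, as the cell type label requires. The libraries held 50187279 to 56371476 estimated reads over the listed genes. CPM here means a read count divided by a library size that the authors rescaled with the trimmed mean of M values (TMM), and 1 read was worth 0.0171 to 0.0203 CPM.

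MHC class II molecules are heterodimers of an alpha and a beta chain that present peptides from the endosomal pathway to CD4 T cells. The invariant chain Cd74 escorts newly made dimers to endosomes and blocks their groove, H2-M (H2-DMa with H2-DMb1 or H2-DMb2) then exchanges the remaining invariant chain fragment for antigenic peptides, and H2-O (H2-Oa with H2-Ob) binds and restrains H2-M. Ciita is recruited to the conserved X and Y boxes of class II promoters by the RFX, CREB and NF-Y factors, and in mice class II surface expression is known mainly for B cells, dendritic cells, macrophages and thymic epithelium.

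The proximal promoters show what most of the class II genes share in sequence. RefSeq promoter windows of GRCm38.p6 (250 bases before to 50 after a start) were matched by symbol for 6 of the 9 genes; H2-Ab1, Cd74 and Ciita had no sequence printed. The windows were searched on both strands for an X core (GNAAC, where N is any base) followed by a Y box (GATTGG) with 20 to 45 bases from start to start, limits that were chosen after these sequences were seen. The 2 motifs share no bases at that distance. The 130 bases before the start are given 5′ to 3′ on the strand of the gene, with the X core and Y box in capitals where the pair was found. H2-DMb2, the near-identical neighbour of H2-DMb1, is shown for comparison.
H2-Aa (chr17:34287824-34287953, minus strand): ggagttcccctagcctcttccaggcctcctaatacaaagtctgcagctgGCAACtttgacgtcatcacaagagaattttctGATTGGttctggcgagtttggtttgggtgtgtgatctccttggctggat
H2-Eb1 (chr17:34305737-34305866, plus strand): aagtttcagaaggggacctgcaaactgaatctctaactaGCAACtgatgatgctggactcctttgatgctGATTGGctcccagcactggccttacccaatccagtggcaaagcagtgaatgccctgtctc
H2-Oa (chr17:34092249-34092378, plus strand): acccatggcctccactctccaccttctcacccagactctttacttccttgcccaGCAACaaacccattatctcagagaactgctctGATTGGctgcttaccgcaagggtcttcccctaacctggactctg
H2-Ob (chr17:34238775-34238904, plus strand): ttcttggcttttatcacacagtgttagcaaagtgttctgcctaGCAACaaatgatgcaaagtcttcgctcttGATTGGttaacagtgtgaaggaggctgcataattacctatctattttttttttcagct
H2-DMb1 (chr17:34153061-34153190, plus strand): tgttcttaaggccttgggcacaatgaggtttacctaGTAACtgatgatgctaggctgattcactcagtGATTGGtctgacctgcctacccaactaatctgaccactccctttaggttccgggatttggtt
H2-DMb2 (chr17:34145119-34145248, plus strand): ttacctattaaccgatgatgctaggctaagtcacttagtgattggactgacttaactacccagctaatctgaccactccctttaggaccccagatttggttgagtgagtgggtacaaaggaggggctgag
The pair was found once, in the orientation of the gene, in the windows of H2-Aa, H2-Eb1, H2-Oa, H2-Ob and H2-DMb1. From the X core to the Y box there were 32 bases in H2-Aa, H2-Oa and H2-DMb1, 31 in H2-Eb1 and 29 in H2-Ob. Neither H2-DMa window nor the H2-DMb2 window held the pair as defined. The H2-DMb2 window held a Y box, and ttaac, with t in place of the first G of the core, stands where H2-DMb1 has its X core. Of all 32851 RefSeq windows, 0.721% held the pair in the gene's orientation, 84.8% held an X core and 16.1% a Y box on either strand. A match is a description of letters only.

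The test, limma on log2(CPM + 1), covered genes that averaged 1 CPM or more across all 8 libraries, and a gene was called at a Benjamini-Hochberg adjusted p under 0.05 over all 11503 genes tested. Of the 9 class II genes, 8 passed this filter, 5 were called higher in CD103Tg and 1 lower, 2 were not called, and Ciita lay under the filter. Of all genes tested, 31.2% were called (17.4% as higher and 13.8% as lower in CD103Tg), and the median log2 fold change was -0.005, against 1.22 over the 8 class II genes tested. H2-DMb1 passed the filter only through the CD103Tg group, so this count and median are a description and nothing rests on them. The 9 genes fell into 3 behaviours: the peptide-presenting chains, the invariant chain, H2-DMb1 and Ciita were higher in every CD103Tg library than in any B6 library, H2-Ob was lower in every CD103Tg library, and H2-DMa and H2-Oa overlapped between the groups. Over all tested genes, the groups did not overlap in 31.0%, with CD103Tg above B6 in 17.4% and below it in 13.6%.

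**Figure D1:**
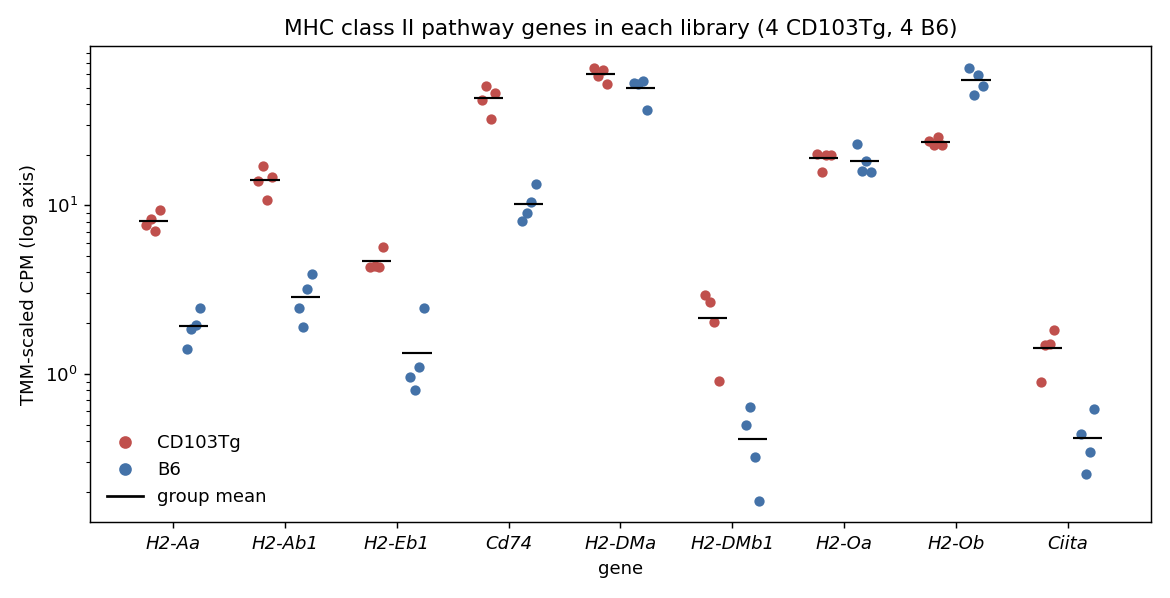
TMM-scaled CPM (log axis) of the 9 class II pathway genes in each of the 4 CD103Tg (red) and 4 B6 (blue) libraries, with group means as black lines. The red points of H2-Aa, H2-Ab1, H2-Eb1, Cd74, H2-DMb1 and Ciita all lie above the blue ones, those of H2-Ob all lie below, and H2-DMa and H2-Oa overlap.

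The classical chains and the invariant chain rose together, 3.51-fold to 4.93-fold by the ratio of mean CPM. H2-Ab1, the beta chain of I-A (chromosome 17, 34257689 to 34269419, plus strand, GRCm38), was at 13.95, 17.1, 10.8 and 14.8 CPM in CD103Tg libraries 1 to 4, against 2.47, 1.89, 3.20 and 3.91 CPM in B6 libraries 1 to 4. The lowest CD103Tg library stood well above the highest B6 library. On the log2(CPM + 1) scale, H2-Ab1 rose by 1.98 ± 0.18 (SE; limma adjusted p = 1.29e-05). H2-Aa, the alpha chain of I-A (34282744 to 34287823, minus strand), was at 7.65, 8.26, 7.02 and 9.36 CPM in CD103Tg and 1.41, 1.85, 1.94 and 2.48 CPM in B6. Its groups were just as separate, with a log2 fold change of 1.64 ± 0.14 (adjusted p = 8.19e-06).

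H2-Eb1, the beta chain of I-E (34305867 to 34316674, plus strand), was at 4.29, 4.35, 4.32 and 5.63 CPM in CD103Tg, against 0.953, 0.799, 1.09 and 2.46 CPM in B6. Libraries 1 to 3 lay close together within each group and library 4 stood above them in both, without closing the gap. The log2 fold change was 1.32 ± 0.20 (adjusted p = 0.000424). The gene of its alpha chain partner is a pseudogene in C57BL/6 mice, so I-E is not known to reach the surface there. H2-Eb1 rested on 211 to 294 reads in CD103Tg and 41 to 144 in B6. Cd74, the invariant chain (chromosome 18, 60803848 to 60812652, plus strand), was at 42.3, 51.2, 32.8 and 46.6 CPM in CD103Tg and 8.06, 9.05, 10.5 and 13.4 CPM in B6. CD103Tg averaged 43.2 ± 7.83 CPM and B6 10.2 ± 2.32 CPM, which gave a log2 fold change of 1.98 ± 0.16 (adjusted p = 6.23e-06). The 4 genes summed to 54.9 to 80.9 CPM in CD103Tg and 12.9 to 22.2 CPM in B6.

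The size of these changes depended on the pseudocount while the calls did not. With 0.1 in place of 1, the log2 fold changes were 2.03 for H2-Aa, 2.29 for H2-Ab1, 1.86 for H2-Eb1 and 2.07 for Cd74, and with 5 they were 0.92, 1.28, 0.61 and 1.66 in the same order. Leaving out any 1 library kept all 4 called, with H2-Eb1 ranging from 1.22 to 1.53.

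Of the H2-M chains, H2-DMb1 rose and H2-DMa did not pass the test. H2-DMb1 (34153072 to 34160230, plus strand) was at 2.94, 2.66, 2.03 and 0.903 CPM in CD103Tg, against 0.498, 0.635, 0.322 and 0.177 CPM in B6. All CD103Tg libraries lay above all B6 libraries, although CD103Tg library 4 came near the B6 level. The log2 fold change was 1.11 ± 0.22 (limma adjusted p = 0.00319), 2.11 with a pseudocount of 0.1 and 0.39 with a pseudocount of 5. H2-DMb1 and H2-DMb2, a second H2-M beta chain gene beside it, were 94.3% identical over 1211 aligned transcript bases, so their reads can be exchanged in counting. H2-DMb2, at 2.06 ± 0.210 CPM in CD103Tg and 0.435 ± 0.182 CPM in B6, likewise passed the filter only through CD103Tg and rose, by 1.10 ± 0.14 (adjusted p = 0.000159). The sum of both genes, which such an exchange leaves alone, was 3.25 to 5.003 CPM in CD103Tg and 0.377 to 1.14 CPM in B6.

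H2-DMa, the alpha chain shared by both forms of H2-M (34119541 to 34139101, plus strand), was at 65.4, 58.7, 63.4 and 52.6 CPM in CD103Tg and 53.6, 52.4, 55.2 and 37.0 CPM in B6. The groups overlapped through CD103Tg library 4, and B6 library 4 stood below the rest. CD103Tg averaged 60.0 ± 5.70 CPM and B6 49.5 ± 8.46 CPM, which gave a log2 fold change of 0.28 ± 0.12 (adjusted p = 0.0962). The exons of H2-DMa overlap those of Brd2 on the opposite strand, and these libraries do not mark the strand. Brd2, a bromodomain gene, was at 240 ± 15.3 CPM in CD103Tg and 257 ± 13.4 CPM in B6 and was not called (adjusted p = 0.213).

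The H2-O chains differed from each other. H2-Ob, the beta chain (34238903 to 34254414, plus strand), was at 24.2, 22.7, 25.4 and 22.8 CPM in CD103Tg, against 65.9, 45.2, 59.4 and 50.9 CPM in B6. The highest CD103Tg library stood far below the lowest B6 library, and the CD103Tg values were tightly grouped. CD103Tg averaged 23.8 ± 1.26 CPM and B6 55.4 ± 9.10 CPM. H2-Ob fell by 1.17 ± 0.10 on the log2 scale (adjusted p = 1.29e-05), on 1122 to 1364 reads in CD103Tg and 2320 to 3594 in B6. It was the only one of the 9 genes called lower, and its log2 fold change stayed between -1.26 and -1.06 over 18 alternative settings. H2-Oa, the alpha chain (34092340 to 34095234, plus strand), was at 20.3, 15.7, 20.1 and 19.9 CPM in CD103Tg and 23.3, 16.0, 18.3 and 15.9 CPM in B6. These values overlapped throughout, with a log2 fold change of 0.06 ± 0.13 (adjusted p = 0.773) that was -0.0038 without B6 library 4. Both H2-O genes carry the X core and Y box pair in the promoters given for them. H2-Oa shares exon bases with the antisense gene BC051537, which was at 0.770 ± 0.219 CPM in CD103Tg and 1.10 ± 0.323 CPM in B6 and lay under the filter.

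Ciita, the transactivator of class II genes (chromosome 16, 10480059 to 10528418, plus strand), was at 0.895, 1.48, 1.51 and 1.82 CPM in CD103Tg and 0.440, 0.253, 0.345 and 0.615 CPM in B6. All CD103Tg libraries lay above all B6 libraries, on 44 to 95 reads per library in CD103Tg and 13 to 36 in B6. Its mean over the 8 libraries was under 1 CPM, so it was not in the tested set. The exact two-sided permutation test gave p = 0.0286, the smallest possible with 70 assignments. Without the filter it was called, with a log2 fold change of 0.77 ± 0.14 (limma adjusted p = 0.00218). Ciita also passed the filter and was called without B6 library 2 (adjusted p = 0.0140) or without B6 library 3 (adjusted p = 0.0134). It passed there only through the CD103Tg group, since every B6 value lay under 1 CPM, so nothing rests on those calls. Exons of Ciita overlap those of Dexi on the opposite strand. Dexi, at 28.2 ± 2.24 CPM in CD103Tg and 20.6 ± 1.70 CPM in B6, was itself called higher by 0.43 ± 0.08 (adjusted p = 0.00239), and the part of its reads in the Ciita value was not tested.

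Levels of different genes are comparable only per length. Divided by the length of the longest coding transcript, the order of the genes differed between the groups. In CD103Tg, Cd74 averaged 30.7 ± 5.56 CPM per kb and H2-DMa 29.9 ± 2.84 CPM per kb, a difference within their spread. H2-Oa followed at 17.5 ± 2.01, H2-Ab1 at 11.7 ± 2.173, H2-Ob at 8.90 ± 0.472 and H2-Aa at 7.16 ± 0.886 CPM per kb. In B6, H2-DMa was first at 24.7 ± 4.22 CPM per kb, H2-Ob was at 20.7 ± 3.41 and H2-Oa at 16.9 ± 3.18, neighbours whose ranges overlapped, and Cd74 came after them at 7.27 ± 1.65. H2-Ab1 and H2-Aa were at 2.37 ± 0.723 and 1.70 ± 0.387 CPM per kb in B6. H2-Eb1, H2-DMb1 and Ciita held the last places in both groups. With the length of all annotated exons, H2-Oa came before H2-Ob in B6, and H2-Eb1 before H2-Aa in both groups.

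Ratios within a library, which no scaling between libraries can move, differed between the groups for each ratio given here that includes H2-Ob. H2-Ob alone already separated the groups, so these ratios are a description and add no separate result. H2-Oa over H2-Ob was 0.841, 0.693, 0.790 and 0.873 in CD103Tg and 0.354, 0.354, 0.307 and 0.312 in B6. H2-DMa over H2-Ob was 2.31 to 2.71 in CD103Tg and 0.726 to 1.16 in B6. These are ratios of CPM without a length correction, and are compared only between the groups. H2-Ob over Cd74 was 0.444 to 0.774 in CD103Tg and 3.80 to 8.17 in B6. Within the set that rose, Cd74 over H2-Ab1 was 2.99 to 3.16 in CD103Tg, a narrow range, and 3.26 to 4.78 in B6. These ranges did not overlap, by a small margin. H2-Ab1 over H2-Aa overlapped at 1.53 to 2.07 in CD103Tg and 1.021 to 1.75 in B6. H2-Eb1 over H2-Ab1 overlapped too, at 0.254 to 0.401 in CD103Tg and 0.341 to 0.629 in B6.

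**Figure D2:**
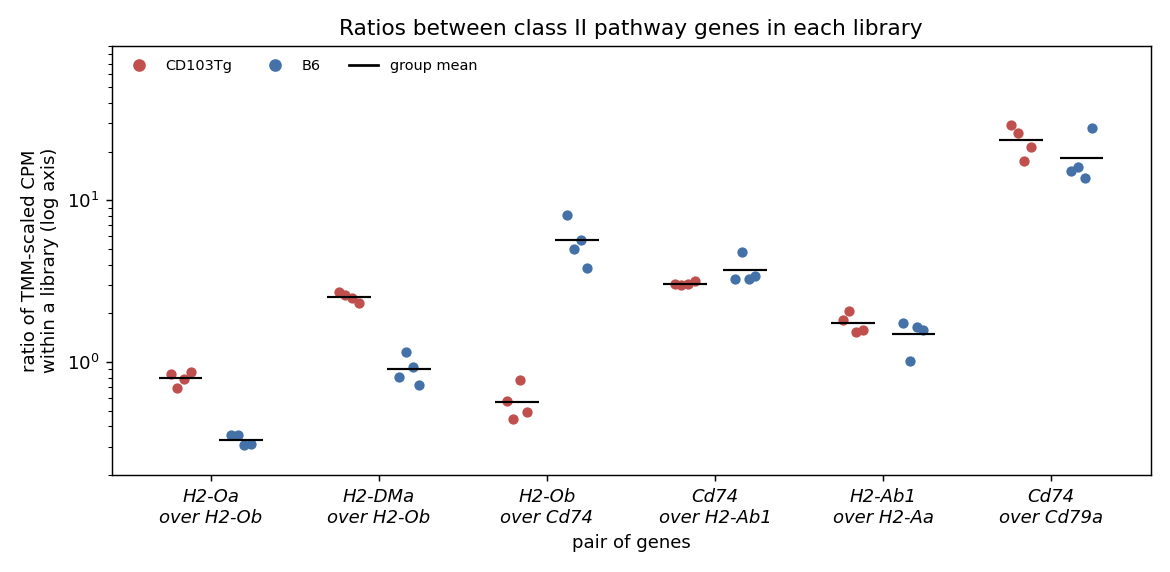
Ratio of TMM-scaled CPM between pairs of genes within each library (log axis), with CD103Tg in red, B6 in blue and group means as black lines. The 3 ratios that include H2-Ob separate the groups, with H2-Oa over H2-Ob at 0.693 to 0.873 in CD103Tg and 0.307 to 0.354 in B6. Cd74 over H2-Ab1 separates them narrowly, H2-Ab1 over H2-Aa overlaps, and Cd74 over Cd79a overlaps through B6 library 4.

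Of the 9 genes, 7 lie in the class II region of chromosome 17, where 14 listed genes fall within the 224 kb from the start of H2-Oa to the end of H2-Eb1. Along it, changes in both directions were close neighbours. H2-Ob, which fell, lies next to H2-Ab1, which had the highest log2 fold change of the 14. The class I antigen processing genes between H2-DMb1 and H2-Ob all rose modestly: Psmb9 by 0.34 ± 0.06 and Psmb8 by 0.38 ± 0.06, both immunoproteasome subunits, and Tap1 by 0.42 ± 0.05 and Tap2 by 0.21 ± 0.05, the peptide transporter chains (adjusted p of 0.00717 or less for each). Tap1 was at 439 ± 19.1 CPM in CD103Tg and 328 ± 7.405 CPM in B6. Of the 7 listed genes there that are not among the 9, 5 were called higher, and Brd2 and CR974462.4 were not called. Of all genes tested, 17.4% were called higher. H2-DMb2, among the 5, passed the filter only through the CD103Tg group, so nothing rests on this count.

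**Figure D3:**
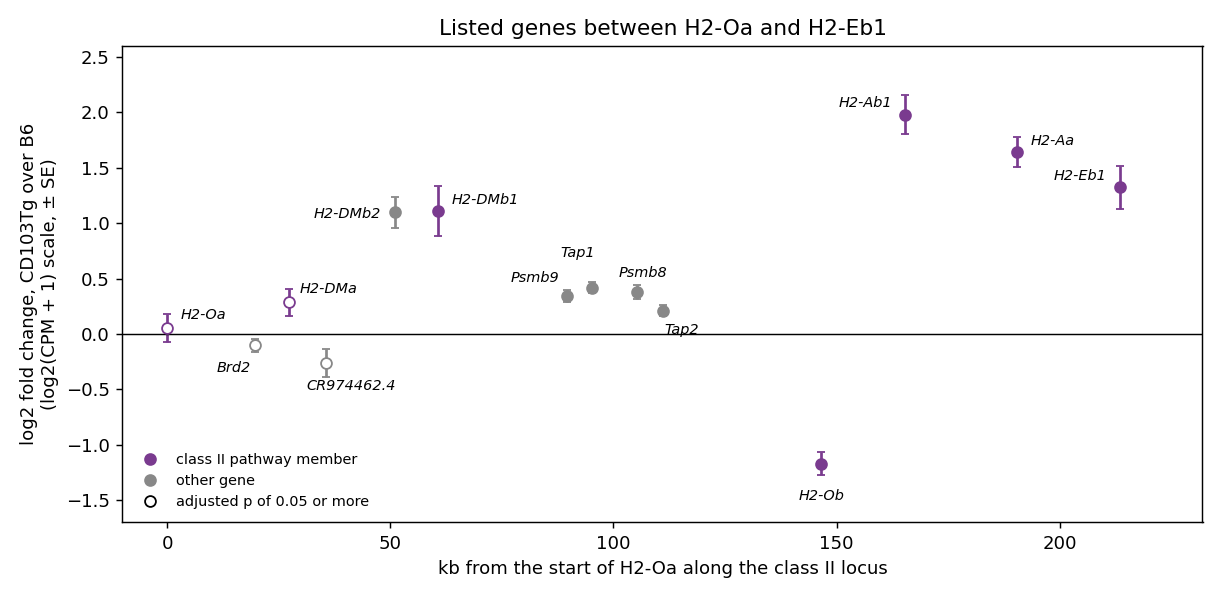
Log2 fold change (CD103Tg over B6, log2(CPM + 1) scale, ± SE) of the 14 listed genes of the class II region against the distance in kb from the start of H2-Oa. Purple points are class II pathway genes, grey points other genes, and open points were not called; H2-Ob at -1.17 is the only called point below 0.

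Genes around the pathway were read from 5 lists. Of 19 tested genes of antigen processing and class II turnover, 4 rose and 3 fell, shares near the 17.4% and 13.8% of all genes, with a median log2 fold change of 0.02. Ctsl, a cathepsin that trims the invariant chain in thymic cortical epithelium, fell by 1.42 ± 0.13, to 4.09 ± 0.640 CPM in CD103Tg, against 12.6 ± 1.96 CPM in B6 (adjusted p = 1.59e-05). Ctss, the cathepsin that does so in B cells and dendritic cells, was at 198 ± 5.22 CPM in CD103Tg and 221 ± 21.1 CPM in B6 and was not called (adjusted p = 0.112). Ctsh, an aminopeptidase cathepsin that passed the filter only through the CD103Tg group, rose by 1.14 ± 0.17, at 2.85 ± 0.530 CPM in CD103Tg and 0.754 ± 0.333 CPM in B6. The tetraspanin Cd82 rose by 0.34 ± 0.08 and the tetraspanin Cd9 fell by 0.92 ± 0.22. The thiol reductase Ifi30, at 12.9 ± 1.26 CPM in CD103Tg and 12.1 ± 0.793 CPM in B6, was not called.

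The 15 factors that bind class II promoters or act there with Ciita were all tested. None was called higher by limma (1 at an unadjusted p under 0.05, 0 with limma voom), and 2 fell, Crebbp, a histone acetyltransferase, by 0.40 ± 0.06 and Creb1, which binds beside the X box, by 0.38 ± 0.08 (adjusted p = 0.000559 and 0.00477). Rfx5, the DNA-binding RFX subunit, was at 44.2 ± 3.69 CPM in CD103Tg and 38.4 ± 2.33 CPM in B6 (adjusted p = 0.0657). Rfx5 passed as higher without library 4 of either group (adjusted p = 0.0415 without that of CD103Tg and 0.0411 without that of B6). Nfyc, a subunit of the Y box factor, was at 68.8 ± 1.495 CPM in CD103Tg and 77.3 ± 6.55 CPM in B6 (adjusted p = 0.0740). Nfyc passed as lower with equal totals (limma adjusted p = 0.0321), with quantile normalization (0.0395) and without B6 library 2 (0.0404).

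Of 15 tested regulators of Ciita, 6 rose and 1 fell, against 17.4% and 13.8% of all genes, with a median of 0.03. Socs1, an inhibitor of interferon signalling, was at 109 ± 6.05 CPM in CD103Tg and 51.2 ± 9.17 CPM in B6, a rise of 1.08 ± 0.10 (adjusted p = 1.95e-05). Irf8, an interferon regulatory factor, rose by 0.69 ± 0.06 (adjusted p = 1.76e-05), and Ezh2, a histone methyltransferase that can silence Ciita, by 0.98 ± 0.11 (adjusted p = 5.85e-05). The list's members moved in ways that its name does not order, since it holds activators and repressors alike. Irf1, which activates Ciita downstream of interferon gamma, was at 422 ± 13.1 CPM in CD103Tg and 432 ± 25.8 CPM in B6 (adjusted p = 0.702). Ifngr2, a chain of the interferon gamma receptor, fell by 0.63 ± 0.20 (adjusted p = 0.0338). Of the 4 tested partners and ligands of the invariant chain and class II molecules, Mif, Ddt, Cd44 and Cxcr4, none was called by limma (0 at an unadjusted p under 0.05, 0 with limma voom), and Ddt, the one with the smallest p, had an adjusted p of 0.307. Over the 5 lists, H2-DMb2 included, 17 of 54 tested genes were called (31.5%, against 31.2% of all genes), 11 higher and 6 lower, which is near the background and no result about the lists. With equal library totals the same lists gave 11 and 11, with quantile normalization 11 and 10.

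Transcripts of other class II-bearing cells were read beside these values, since in bulk RNA more cells of a type and more RNA per cell cannot be told apart. Of the 29 B cell markers 21 were listed, and all CD103Tg libraries lay above all B6 libraries in 11 and below in 5. This count includes markers under the filter. Over all 13245 listed genes, the groups did not overlap in 29.3%, counting either direction. Cd79a, a chain of the B cell receptor complex, was at 1.44, 1.96, 1.86 and 2.18 CPM in CD103Tg and 0.531, 0.565, 0.767 and 0.478 CPM in B6, a rise of 0.85 ± 0.14 (adjusted p = 0.000817). Ms4a1 (CD20) was at 0.745 to 1.76 CPM in CD103Tg and 0.0975 to 0.383 CPM in B6. It was low, separate between the groups and under the filter. Ebf1, a transcription factor that specifies B cells, was at 1.44 to 2.42 CPM in CD103Tg and, listed at 0 in B6 library 1, at no more than 0.205 CPM in B6. B cell genes lay on both sides, where 17.4% of all genes tested were called higher and 13.8% lower. Among the 13 tested B cell markers, Cd22, Igkc, Ebf1 and Cd79a rose, 5 fell and 4 were not called. Ebf1 and Cd79a passed the filter only through the CD103Tg group, so nothing rests on this tally. Its summed level was 620 to 773 CPM in CD103Tg and 1078 to 1177 CPM in B6, and Ighm, its gene with the highest CPM, fell by 1.11 ± 0.12, to 382 ± 80.7 CPM in CD103Tg, against 816 ± 40.4 CPM in B6. Cd79b, the partner of Cd79a, was at 32.3 ± 3.19 CPM in CD103Tg and 32.0 ± 1.82 CPM in B6, and Spib was listed at 0 in B6 library 3.

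Cd74 over Cd79a within a library was 29.3, 26.04, 17.6 and 21.4 in CD103Tg and 15.2, 16.0, 13.7 and 28.0 in B6, which overlapped through B6 library 4 alone. H2-Ab1 over Cd79a was 5.78 to 9.66 in CD103Tg and 3.34, 4.17, 4.66 and, in library 4, 8.18 in B6. Without B6 library 4, a check chosen after these values were seen, the CD103Tg values of both ratios lay above the B6 values. Nothing rests on that check, and Cd79a, the divisor, lay under 1 CPM in every B6 library. By the ratio of mean CPM, CD103Tg over B6, Cd79a differed 3.18-fold and Cd74 4.22-fold. Over the 8 libraries, the deviations of Cd79a from its group means had a Pearson r of 0.0892 with the mean deviation of Cd74, H2-Aa, H2-Ab1 and H2-Eb1. Igkc, the kappa light chain, was at 41.0, 85.2, 5.77 and 11.5 CPM in CD103Tg and 0.222 to 2.32 CPM in B6. Its spread among CD103Tg libraries was far wider than that of Cd74. The plasma cell list (8 listed) had 6 genes in the test, all of which passed the filter only through the CD103Tg group, so no count of calls is given. It summed to 15.8 to 146 CPM in CD103Tg and 0.836 to 4.00 CPM in B6, with Mzb1, Ighg2c and Igha listed at 0 in some B6 libraries. The part of B lineage transcripts in the class II values was not tested.

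Dendritic cell markers summed to 72.0 to 91.5 CPM in CD103Tg and 41.9 to 47.6 CPM in B6, with 4 of 8 tested genes higher. Beside this count and that of the macrophage list, 17.4% of all genes tested were called higher and 13.8% lower. Itgax (CD11c, which activated T cells also express) was at 33.4, 22.7, 22.6 and 21.99 CPM in CD103Tg and 5.96, 4.25, 7.31 and 8.66 CPM in B6, a rise of 1.81 ± 0.19. Flt3, at 0.447 to 1.07 CPM in CD103Tg and 0 to 0.871 CPM in B6, overlapped, and B6 library 4 held the highest B6 value. Xcr1, the receptor of cross-presenting dendritic cells, rose by 0.57 ± 0.16 (adjusted p = 0.0198), a call lost without B6 library 1 (adjusted p = 0.0546), B6 library 2 (0.0577) or CD103Tg library 2 (0.0628). The macrophage and monocyte list (15 listed, 9 tested, 3 higher) summed to 195 to 412 CPM in CD103Tg and 48.4 to 113 CPM in B6. Most of that sum in each CD103Tg library was Ccr2, the list's gene with the highest mean, which memory T cells also express. Ccr2 was at 260 ± 61.0 CPM in CD103Tg and 35.6 ± 2.94 CPM in B6. Lyz2, a myeloid lysozyme, was at 63.9, 78.3, 21.7 and 9.42 CPM in CD103Tg and 10.7, 55.0, 8.74 and 2.42 CPM in B6. Its groups overlapped and it was not called (adjusted p = 0.194), although it was called without B6 library 2 (adjusted p = 0.0341). Within CD103Tg, library 2 had the highest Lyz2, Cd74 and H2-Ab1, and library 4 had the lowest Lyz2 and the highest H2-Aa and H2-Eb1. In B6, library 4 had the lowest Lyz2 and the highest of all 4 class II genes. Of the markers in this and the next paragraph, Sirpa, Fscn1, Ccl22, Siglech and Tmem176a passed the filter only through the CD103Tg group and Ctla4 only through B6, so the counts are descriptions. Cd209a and Flt3 were listed at 0 in B6 library 2, and Siglech, Csf3r, Cd300a and Clec7a in B6 library 4.

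The plasmacytoid dendritic cell list, 4 of 8 tested genes higher and 2 lower, summed to 280 to 344 CPM in CD103Tg and 280 to 340 CPM in B6. Beside this count and the others of this paragraph, 17.4% of all genes tested were called higher and 13.8% lower. The type 3 innate lymphoid list, 4 of 5 tested genes higher (Id2, Ahr, Tmem176a and Tmem176b), summed to 848 to 1014 CPM in CD103Tg and 649 to 773 CPM in B6. The CD4 and regulatory T cell genes summed to 3.54 to 4.61 CPM in CD103Tg and 3.65 to 5.20 CPM in B6, with 1 of 2 tested genes higher. Of granulocyte markers 3 were listed and none tested, at 0.0931 to 4.597 CPM in CD103Tg and 0.0683 to 3.06 CPM in B6, with S100a8 listed at 0 in CD103Tg library 3 and S100a9 in B6 library 4. Of stromal markers only Pecam1 was listed, and it fell by 0.46 ± 0.08. Of 12 tested CD8 identity and sort genes, 1 rose (Itgae) and 4 fell (Cd8a, Trac, Trbc1 and Trbc2). Markers of these lists that have no row in the table, among them Pax5, Cd4 and C1qa, were not analysed here.

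**Figure D4:**
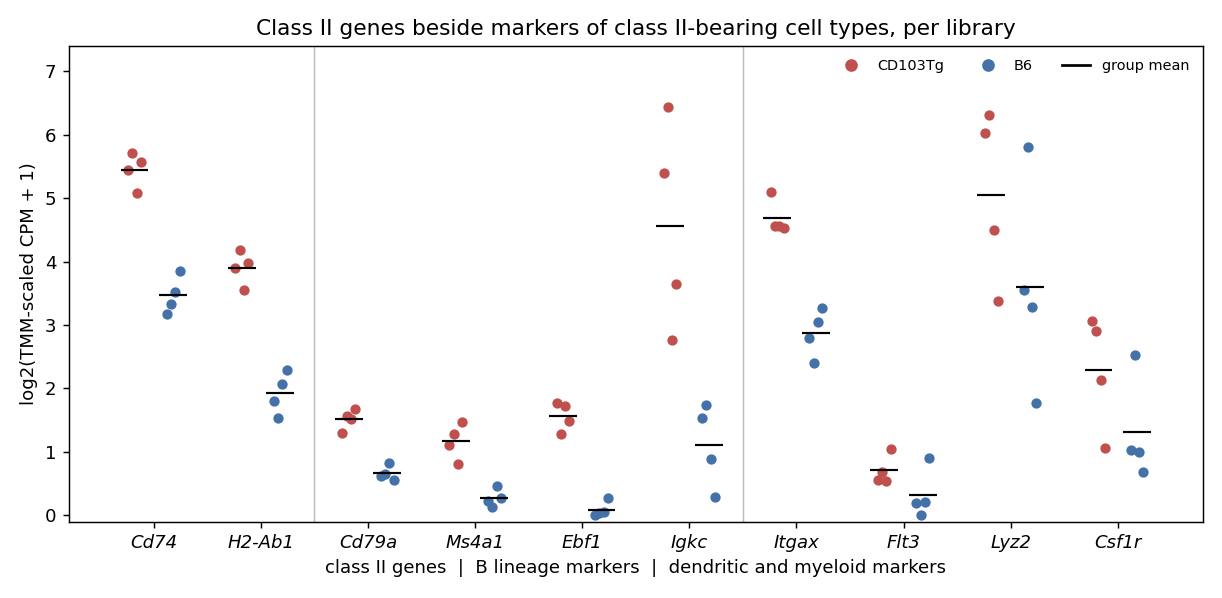
Log2(TMM-scaled CPM + 1) per library of Cd74 and H2-Ab1 (left), B lineage markers (middle) and dendritic and myeloid markers (right), with CD103Tg in red, B6 in blue and group means as black lines. Cd79a, Ms4a1, Ebf1, Igkc and Itgax lie higher in all 4 CD103Tg libraries, whereas Flt3, Lyz2 and Csf1r overlap between the groups. The markers shown are only a part of their lists. Over the whole lists, all CD103Tg libraries lay above all B6 libraries in 11 of 21 listed B cell markers and below in 5. For dendritic cell markers this was 3 above and 0 below of 11, and for macrophage and monocyte markers 4 and 0 of 15. Over all listed genes, the groups did not overlap in 29.3%.

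Within the groups, Cd74, H2-Aa, H2-Ab1 and H2-Eb1 varied together. Deviations from group means on the log2(CPM + 1) scale gave Pearson r of 0.67 to 0.90 over the 6 pairs of these genes (8 libraries, given as a description, since the points share library and scaling). H2-DMa ran the other way, with r of -0.93 to -0.60 to these 4 genes, and H2-DMb1, although higher in CD103Tg, had r of -0.64 to -0.28 to them. H2-Oa and H2-Ob had r of 0.81 to each other. Without B6 library 4, a check chosen after these values were seen, the r were 0.37 to 0.84 among the 4 genes, -0.67 to -0.22 for H2-DMa, -0.92 to -0.12 for H2-DMb1 and 0.79 between H2-Oa and H2-Ob, over 7 libraries. B6 library 4 lay at the end of this pattern, which was weaker without it among the 4 genes and for H2-DMa. It had the highest H2-Aa, H2-Ab1, H2-Eb1 and Cd74 of the B6 libraries, the lowest H2-DMa, and the highest Itgae, 173.9 CPM, against 37.5 to 51.4 CPM in the other B6 libraries. Of 11499 genes, the 10 whose deviations were most like the mean of Cd74, H2-Aa, H2-Ab1 and H2-Eb1 were St7l, Bag3, Osgin2, Ndel1, Zfp566, Ccdc77, Oser1, Gatc, Eloa and Arl4a, with r of 0.937 to 0.967. These genes were not called between the groups (limma adjusted p of 0.0676 or more). Itgae ranked 135 from the top with r of 0.783, Itgax had 0.533, Lyz2 -0.550, H2-Oa -0.504 and H2-Ob -0.299. The likeness values cover all 8 libraries and were not repeated without B6 library 4.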

How the data were processed

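Per the labels' protocols, total RNA was made into libraries with SMART-Seq v4 and Nextera XT kits, which mark neither strand nor molecule. The submitters' processing notes list the builds GRCm38 and mm10 and the tools RSEM, STAR 2.7.0f, cutadapt 1.18 and bcl2fastq 2.17. The authors deposited 1 table whose values are a normalized signal per gene, TMM-scaled CPM, and not counts. It holds a filtered gene set by a rule the sources used here do not state. All 13245 gene IDs matched GENCODE M21, the source of coordinates. Reads estimated from the CPM steps (63.0% to 65.2% per library whole within 0.005 of a read) served for depth and 1 alternative test.

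The log2(CPM + 1) values were fitted in R 4.3.3 by limma 3.58.1 (lmFit, then eBayes with trend; the groups alone as factor; two-sided; Benjamini-Hochberg over every gene tested), after a test on simulated data. A positive log2 fold change means CD103Tg was higher. Tables, promoter searches and figures were made with Python 3.11.15, pandas 2.3.3, Biopython 1.88 and matplotlib 3.10.9. The genes named are the 9 class II genes, the 4 genes with the smallest p of each pathway list with a call (2 otherwise), the 4 with the highest CPM of each marker list, and the 10 genes most like the class II mean. Further list members, overlapping genes and genes of the class II region were named after their values were seen. A few genes of these lists are not reported here by name. The 9 genes, the 5 pathway lists and the 10 marker lists were chosen with earlier results of these data known. Alternatives tried were other pseudocounts (0.1 and 5), filters (none, or a mean of 5 CPM) and scalings (median-of-ratios, equal totals, quantile), robust eBayes, limma voom on the estimated reads, a block for the replicate number, and each library left out.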

Additional observations from a re-analysis of the deposited data

Results flagged for a closer look

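Within each group of 4 libraries, 60 genes were looked at for a library far from the other 3, by the gap to the nearest library as a share of the group's whole range, with 0.829 as the limit for 4 values. Chance alone flags about 1 in 20 such groups, and 16 of 120 were flagged. H2-Eb1, H2-Oa and H2-DMa were among them. H2-Eb1 in CD103Tg library 4 stood high at 5.63 CPM, against 4.29 to 4.35 CPM in the other CD103Tg libraries (gap share 0.953). H2-Oa in CD103Tg library 2 stood low at 15.7 CPM, against 19.9 to 20.3 CPM (0.913). H2-DMa in B6 library 4 stood low at 37.0 CPM, against 52.4 to 55.2 CPM (0.85).

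The remaining flags concern genes of the lists. B6 library 4 stood high for Itgae (gap share 0.898) and Zbtb7b (0.876) and low for Cd9 (0.858). B6 library 2 stood high for Lyz2 (0.843), S100a8 (0.894), S100a9 (0.855), Igha (0.829) and Ighg2c (1.0), myeloid, granulocyte and antibody genes. CD103Tg library 4 stood high for Cd40lg (0.912) and Creb1 (0.895), CD103Tg library 2 for Cxcr2 (0.904), and CD103Tg library 1 for Itgax (0.942) and Tmem176b (0.927).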

How the results depend on the processing

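The count of called genes, 3592, ranged from 2978 to 3815 over the other settings and from 2771 to 3583 with 1 library left out. Its split of 2000 higher and 1592 lower became 1756 and 1848 with equal totals and 1744 and 1989 with quantile normalization. Of the class II genes, 6 were called, 5 higher and 1 lower. This became 3 with a minimum mean of 5 CPM, where fewer of them were tested, and 6 or 7 under each other setting, with 6 to 7 when 1 library was left out. The pathway lists had 17 called genes, 15 to 22 over the other settings and 14 to 22 with 1 library left out. Same-numbered libraries deviated together with correlations of 0.22, 0.35, -0.08 and 0.12, so the numbers were not taken as pairs. With the replicate number as a block, 3682 genes, 7 class II genes and 20 pathway genes were called, the added class II gene being H2-DMa (adjusted p = 0.0155), and the myeloid genes Lyz2 (adjusted p = 0.00426) and Cybb (0.00345) were called higher. Of 54 named genes with a test, 41 kept their side of the threshold under each alternative in which they were tested (at most 18, fewer for genes that a setting's filter removed), and no called gene changed sign. H2-Oa, not called, was at -0.0038 without B6 library 4, and Cd86, not called, was below 0 in 5 settings. Calls differed in some setting for Cd8b1, Ctla4, Cybb, H2-DMa, Ighg2b, Il2ra, Il7r, Ly6c2, Lyz2, Nfyc, Rfx5, Tyrobp and Xcr1, and the cause was not tested. Depth limits Ciita and H2-DMb1 most, with 13 to 36 and 10.4 to 32.6 reads per B6 library.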
